A study of Mus musculus with 6 samples.

Results

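The miRNAs described here are those known from red blood cells, namely mmu-miR-451a, the arms mmu-miR-144-3p and mmu-miR-144-5p, the arms mmu-miR-486-5p and mmu-miR-486-3p, and mmu-miR-3107-5p (mmu stands for mouse and is left out from here on). They were chosen by name and are 6 of the 1900 mature miRNA names in the small RNA counts of 6 renal cortex libraries, each from a separate mouse. All 3 mice of the diet-only group were C57BL/6 mice that ate the diet labelled HF/HC/HS/BA, which is rich in fat and cholesterol and contains bile salt, for 8 weeks. The 3 mice of the tofogliflozin group were of the same strain and ate the same diet with tofogliflozin, an inhibitor of the glucose transporter SGLT2 of the proximal tubule, for 8 weeks. The sources used here do not give the age or sex of the mice, or say whether the kidneys were flushed of blood, and mice on a normal diet were not analysed here. Each member had 1 row in every table and at least 1 count in every library.

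Red cells lose their nucleus but keep the small RNAs made in their precursors, so any tissue sampled with its vessels can carry them. The miR-144 and miR-451a hairpins are cut from one primary transcript that the erythroid factor GATA1 switches on. The miR-144 hairpin is then cut by Dicer in the usual way, whereas the stem of the miR-451a hairpin is too short for Dicer and is sliced by Argonaute 2. The miR-486 hairpin comes from an intron of Ank1, the gene of ankyrin-1 in the red cell membrane skeleton, and miR-486 is also made in striated muscle. In a whole tissue, fewer red cells and less of the miRNA per red cell cannot be told apart.

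The mature sequences of the cluster mates are shown because their seeds (bases 2 to 8, in capitals) differ, so that no read of one is a read of the other. They are from RefSeq (GRCm38.p6), whose table held 3 of the 6 members. No sequence is given for miR-486-5p, miR-486-3p or miR-3107-5p.

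miR-451a: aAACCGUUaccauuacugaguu
miR-144-3p: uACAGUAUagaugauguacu
miR-144-5p: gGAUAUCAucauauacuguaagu

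They lie on the plus strand of mouse chromosome 11, at chr11:78073186-78073207 for miR-451a, chr11:78073047-78073066 for miR-144-3p and chr11:78073010-78073032 for miR-144-5p. No annotated mature sequence in the table shared bases 2 to 8 with any of these 3. One shared bases 2 to 7 with miR-144-3p, namely miR-101a-3p (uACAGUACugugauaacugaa), from chromosome 4. It was read at 1558 ± 199 CPM (counts per 1000000 counts of the library, SD, n = 6 libraries), while miR-144-3p was read at 0.574 ± 0.308 CPM.

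The hairpins show the difference in biogenesis, with the mature miRNAs in capitals.

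Mir451a hairpin: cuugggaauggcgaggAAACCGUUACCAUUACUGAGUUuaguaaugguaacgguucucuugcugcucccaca
Mir144 hairpin: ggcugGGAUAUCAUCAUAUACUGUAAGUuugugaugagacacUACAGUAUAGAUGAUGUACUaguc

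The Mir144 hairpin is at chr11:78073005-78073070 and the Mir451a hairpin at chr11:78073170-78073241, with 99 bases between them. In the folds that RNAfold predicted, the arms of miR-144 lay on either side of the loop. The single mature miRNA of the Mir451a hairpin, bases 17 to 38 of 72, had 17 bases in the stem and ran on through all 4 bases of the loop. Of 1635 mature miRNAs that could be placed in a folded hairpin, 5 (0.306%) covered every base of the terminal loop in this way. The minus strand of the Mir451a hairpin is annotated as miR-451b, which had 0 counts in all 6 libraries, where 3 counts would allow up to 0.131 to 0.452 CPM per library (counting error only). Neither hairpin overlaps an annotated gene other than miR-451b in GENCODE M21. Mir486 (chr8:23142555-23142682, plus strand) lies in an intron of Ank1, and Mir3107 (chr8:23142573-23142662, minus strand) lies within Mir486 on the opposite strand.

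Libraries held 6643638 to 22886200 counts once a name with several rows was taken from its largest. Tofogliflozin replicate 2 was the shallowest and stood apart from the other 5 on the first principal component (52.0% of the variance). Several results are therefore also given without it. Kidney tubule miRNAs were abundant in every library, with miR-192-5p at 51463 ± 2723 CPM (SD, n = 6).

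Red cell miRNAs were a small part of every library. The 5 members other than miR-3107-5p are summed here, since its counts ran close beside those of miR-486-5p in every library. Together they took 0.00501%, 0.00811% and 0.0172% of the counts in diet-only replicates 1, 2 and 3. In tofogliflozin replicates 1, 2 and 3 they took 0.0146%, 0.0232% and 0.00917%. The Wilson 95% interval was 0.00473% to 0.00531% for the lowest library and 0.0220% to 0.0244% for the highest. The group ranges overlapped. miR-486-5p made up 83.5% to 92.2% of this sum, miR-451a 4.94% to 11.5% and both arms of miR-144 together 0.459% to 0.897%.

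**Figure D1:**
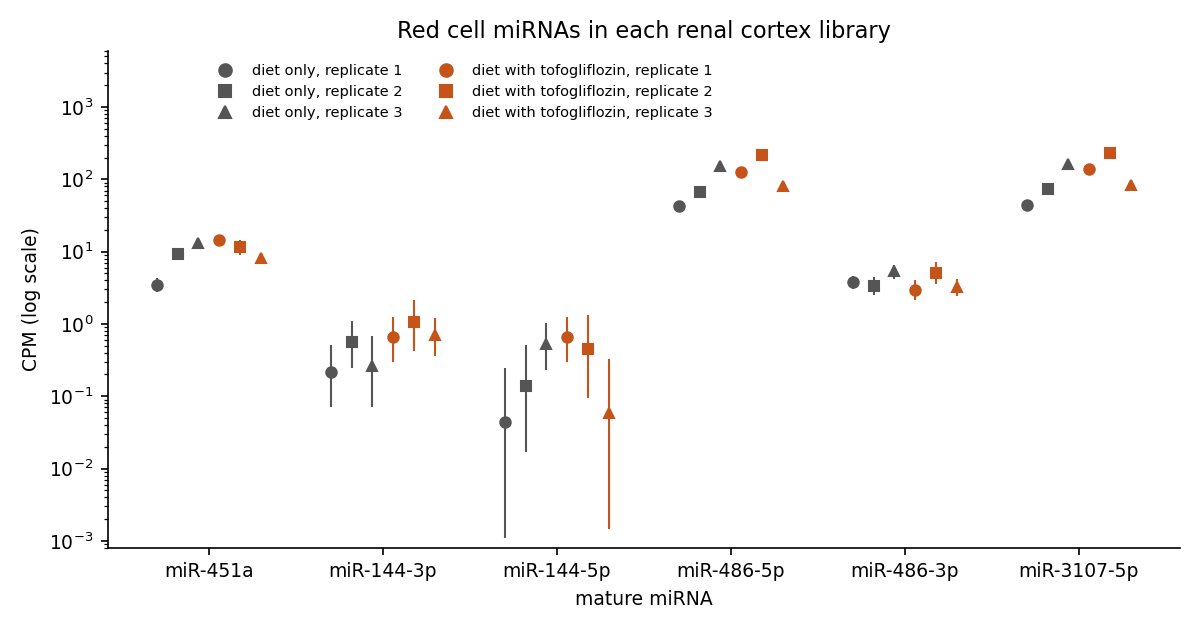
CPM of each member (x axis) on a log scale (y axis), 1 point per library, grey for diet only and orange for tofogliflozin, with exact 95% Poisson intervals that cover counting error only. miR-486-5p and miR-3107-5p lie near 100 CPM, miR-451a near 10 CPM and both arms of miR-144 near or below 1 CPM, and only miR-144-3p has groups that do not overlap.

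miR-486-5p, the main arm of its hairpin, was the most abundant of these 5. It was read at 42.6, 67.7 and 153 CPM in diet-only replicates 1 to 3 and at 127, 214 and 79.6 CPM in tofogliflozin replicates 1 to 3. Diet-only replicate 1 was the lowest and tofogliflozin replicate 2 the highest, 5.02-fold apart, and the groups overlapped. By mean CPM it ranked 133 among all names.

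miR-3107-5p, from the opposite strand of the same locus and also called miR-486b, was read at 44.3, 72.6 and 163 CPM in the diet-only mice and at 138, 229 and 84.7 CPM with tofogliflozin. Its counts were 1.04 to 1.08 times those of miR-486-5p in every library. The counts were close but never equal, and the order of the libraries was the same. How reads that fit both names were counted was not stated, so these rows are not treated as independent measurements. Of its opposite arm, miR-3107-3p, 1, 8 and 8 counts were read on the diet alone and 2, 2 and 7 with tofogliflozin.

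miR-451a, the most characteristic miRNA of mature red cells, was read at 3.50, 9.32 and 13.1 CPM in the diet-only mice and at 14.5, 11.4 and 8.06 CPM with tofogliflozin. These are 76 to 200 counts per library. Diet-only replicate 1 stood below the other 5, which lay within 8.06 to 14.5 CPM across both groups. By mean CPM miR-451a ranked 250.

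miR-486-3p, the other arm of the miR-486 hairpin, was read at 3.76, 3.36 and 5.32 CPM in the diet-only mice and at 2.98, 5.12 and 3.25 CPM with tofogliflozin. It was the steadiest member, 1.79-fold from lowest to highest. miR-451a exceeded it in 5 of 6 libraries, and in diet-only replicate 1 the interval of miR-451a (2.77 to 4.35 CPM) overlapped that of miR-486-3p.

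miR-144 was near the limit of detection. The 3p arm, a miRNA of erythroid precursors known to act on the antioxidant regulator Nrf2, had 5, 8 and 4 counts on the diet alone and 9, 7 and 12 with tofogliflozin. The 5p arm had 1, 2 and 8 counts on the diet alone and 9, 3 and 1 with tofogliflozin. In rank by mean CPM they were 478 and 551. With so few reads their order cannot be given, since the 3p arm exceeded the 5p arm in 4 libraries, equalled it in 1 and fell short in 1.

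Among the 4 members tested, mice of one group differed more in miR-451a, miR-486-5p and miR-3107-5p than in the typical miRNA. The SD of log2 CPM within groups was 0.76 for miR-451a, 0.83 for miR-486-5p and 0.84 for miR-3107-5p, against a median of 0.33 over the 460 miRNAs tested. These values stood at percentile 90.7, 92.6 and 93.3. The rows of miR-486-5p and miR-3107-5p are not independent, and the comparison was not matched for abundance. For miR-486-3p it was 0.36, at percentile 53.9.

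**Figure D2:**
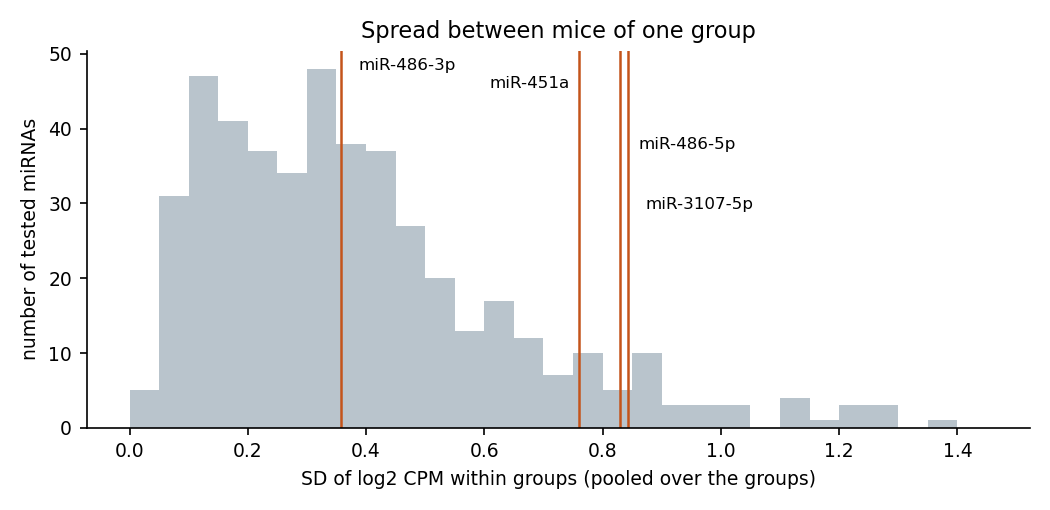
Histogram of the SD of log2 CPM within groups (x axis) over the 460 tested miRNAs (y axis, number of miRNAs), with orange lines for the 4 members tested. miR-451a, miR-486-5p and miR-3107-5p lie in the upper tail at 0.76 to 0.84, and miR-486-3p lies near the median of 0.33.

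The next question was how much miR-451a was read beside the miRNA of the same primary transcript that Dicer cuts. Over all libraries miR-451a had 827 counts and miR-144-3p 45, a ratio of 18.4. Of the pooled reads of both, 94.8% were miR-451a, and 91.6% to 98.0% by library. The exact 95% interval of the pooled share, 93.2% to 96.2%, covers counting error only and not the spread between mice. These are ratios of reads of different sequences, with no correction for how well each enters a library.

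By library the ratio of miR-451a to miR-144-3p was 16.0, 16.6 and 50 on the diet alone and 22.1, 10.9 and 11.6 with tofogliflozin. miR-451a was in excess in all 6 libraries, and diet-only replicate 3 had the highest ratio, with an exact interval of 19.2 to 185 that overlapped those of all the others. On a log2 scale with 1 count added to each, the mean ratio was 4.33 ± 0.87 in diet-only mice and 3.67 ± 0.57 in treated mice (SD over 3 mice). The difference of -0.65 was less than the within-group SD of 0.74 (exact permutation test, 2-sided, p = 0.4, and 0.667 after Benjamini-Hochberg adjustment over the 5 single-value tests). The smallest p that 3 against 3 mice allow is 0.1. Without diet-only replicate 3 the difference was -0.15, without tofogliflozin replicate 1 it was -0.98, and without tofogliflozin replicate 2 it was -0.45. Over all libraries miR-451a had 34.5 times the counts of miR-144-5p, which had 24.

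Between loci, miR-486-5p was 12.2, 7.27 and 11.6 times miR-451a on the diet alone and 8.78, 18.7 and 9.88 times with tofogliflozin. Tofogliflozin replicate 2 was the highest, with an exact interval of 14.8 to 23.8 that overlapped only that of diet-only replicate 1. The other 5 libraries lay between 7.27 and 12.2. The log2 ratio of miR-451a to miR-486-5p differed between the groups by -0.22 (exact permutation test, 2-sided, p = 0.7, adjusted 0.7), and it turned to 0.02 when diet-only replicate 2 was left out and to 0.11 when tofogliflozin replicate 2 was. Leaving out tofogliflozin replicate 1 gave -0.43, diet-only replicate 1 gave -0.35 and tofogliflozin replicate 3 gave -0.34.

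**Figure D3:**
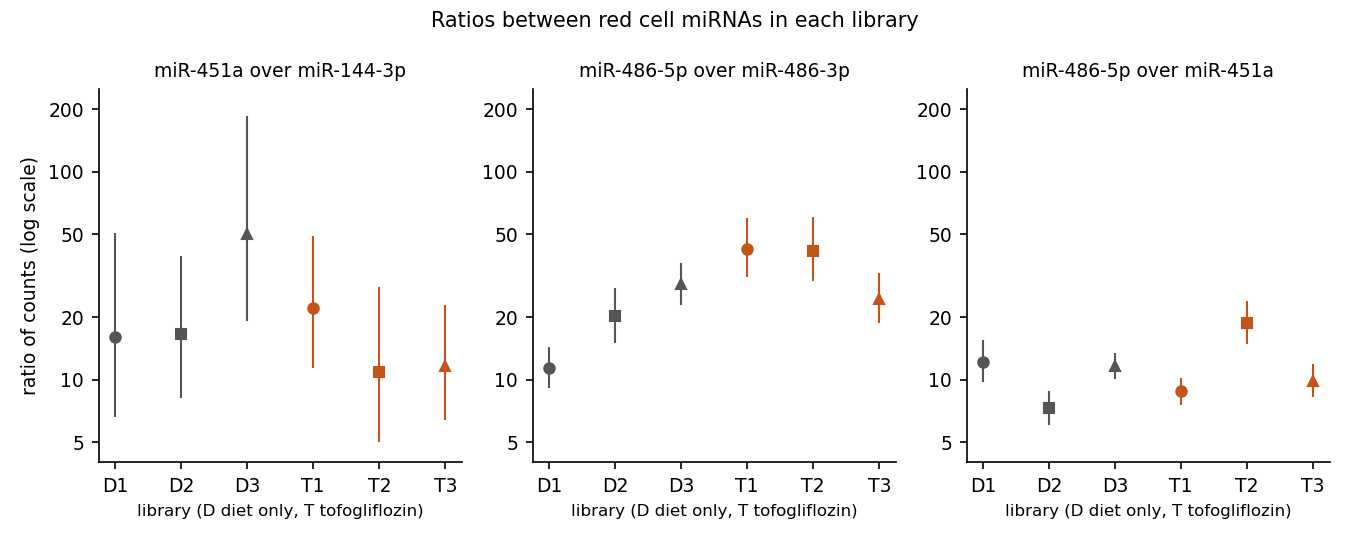
Ratio of counts (y axis, log scale) in each library (x axis, D for diet-only and T for tofogliflozin replicates 1 to 3) for 3 pairs of members, with exact 95% intervals that cover counting error only. Intervals are wide for miR-451a over miR-144-3p, diet-only replicate 1 is lowest for the arms of miR-486, and tofogliflozin replicate 2 is highest for miR-486-5p over miR-451a.

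In the miR-486 hairpin the 5p arm took 96.2% of the reads pooled over all libraries, and 91.9% to 97.7% by library. The exact 95% interval of the pooled share, 95.8% to 96.6%, covers counting error only and not the spread between mice. How reads that fit both miR-486-5p and miR-3107-5p were counted was not stated, so these 5p reads may not all be from this hairpin. The ratio of 5p to 3p was 11.3, 20.1 and 28.7 on the diet alone and 42.6, 41.7 and 24.5 with tofogliflozin. Diet-only replicate 1 was the lowest and tofogliflozin replicates 1 and 2 were the highest, while diet-only replicate 3 and tofogliflozin replicate 3 overlapped. The log2 ratio was higher by 0.90 ± 0.39 (SE) with tofogliflozin, at an adjusted p of 0.918 by limma over 74 hairpins. No hairpin was called (0%), and 1 hairpin (1.35%), miR-486, had an unadjusted p under 0.05. The difference was 0.54 without diet-only replicate 1 and 1.21 without diet-only replicate 3. Leaving out tofogliflozin replicate 3 gave 1.16, at an adjusted p of 0.171 by limma. In that fit 20 of 73 hairpins had an unadjusted p under 0.05, and the smallest p after adjustment by limma was 0.0545.

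In the miR-144 hairpin the 5p arm took 34.8% of the 69 reads of both arms, pooled over all libraries. The exact 95% interval of 23.7% to 47.2% covers counting error only and not the spread between mice. It therefore gives no order of the arms across mice. By library this share was 16.7%, 20% and 66.7% on the diet alone and 50%, 30% and 7.69% with tofogliflozin. The highest library had an exact interval of 34.9% to 90.1% and the lowest one of 0.195% to 36.0%. These intervals met only between 34.9% and 36.0%. The hairpin had too few reads for the test across hairpins.

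Whether tofogliflozin changed the red cell miRNAs was tested with edgeR over all 460 miRNAs that passed its filter on low counts. None of the 4 members that passed was called at an adjusted p under 0.05, and none of all 460 was (0%). At an unadjusted p under 0.05 there were 0 of 4 members and 23 of 460 miRNAs (5%). The number over all miRNAs was 75 of 476 without tofogliflozin replicate 3, 11 of 487 without diet-only replicate 2 and 13 of 489 without tofogliflozin replicate 1. miR-486-5p and miR-3107-5p had an unadjusted edgeR p of 0.0252 and 0.0251 without diet-only replicate 3 (adjusted 0.917 for both), and of 0.0024 and 0.00182 without the filter (adjusted 0.154 and 0.125). DESeq2 called 2 miRNAs, neither of them a member. Of the 4 members, 3 had a log2 fold change above 0, against 49.1% of all tested, and their median was 0.51, against -0.01 over all. Since the counts of miR-486-5p and miR-3107-5p ran close together in every library, the 3 are not separate observations. The groups overlapped for all 4, where 12% of all tested miRNAs had groups that did not.

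The mean of miR-451a was 8.65 ± 4.86 CPM in diet-only mice and 11.3 ± 3.20 CPM in treated mice (SD over 3 mice). This is a log2 fold change of 0.37 ± 0.46 (SE), with a 95% interval of -0.70 to 1.44 (edgeR adjusted p = 0.877). It was -0.00066 without diet-only replicate 1, the library with the least miR-451a, 0.17 without tofogliflozin replicate 1 and 0.62 without tofogliflozin replicate 3. Leaving out diet-only replicate 3 gave 0.79.

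The mean of miR-486-5p was 87.6 ± 57.7 CPM in diet-only mice and 140.1 ± 67.9 CPM in treated mice (SD over 3 mice). edgeR put the log2 fold change at 0.65 ± 0.50 (SE), interval -0.50 to 1.81 (edgeR adjusted p = 0.859). Leaving out tofogliflozin replicate 2 gave 0.22, diet-only replicate 1 gave 0.35 and diet-only replicate 3 gave 1.30. miR-3107-5p followed it, at 0.67 ± 0.51. Without those 3 libraries in turn it was 0.23, 0.36 and 1.32.

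For miR-486-3p, with means of 4.15 ± 1.04 CPM in diet-only and 3.78 ± 1.17 CPM in treated mice (SD over 3 mice), the log2 fold change was -0.20 ± 0.31 (interval -0.91 to 0.52, edgeR adjusted p = 0.910). It was -0.45 once tofogliflozin replicate 2 was left out and 0.013 once diet-only replicate 3 was. It was -0.02 without tofogliflozin replicate 1 and -0.06 without tofogliflozin replicate 3.

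**Figure D4:**
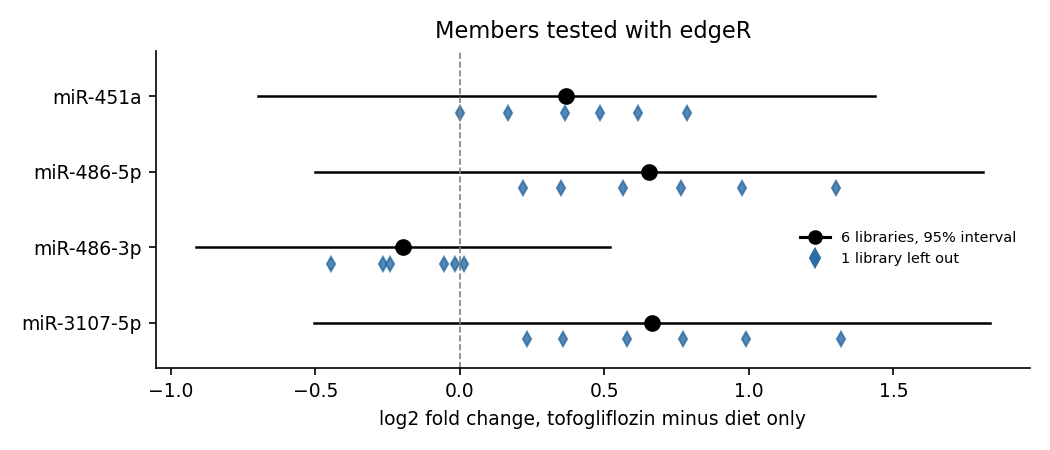
Log2 fold change, tofogliflozin minus diet only (x axis), of the 4 members that passed the filter (y axis), with edgeR 95% intervals as black lines and the values with 1 library left out as blue diamonds. All 4 intervals include 0, and single libraries bring miR-451a and miR-486-3p to or across 0.

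The arms of miR-144 missed the filter and were compared by CPM. miR-144-3p was read at 0.218, 0.560 and 0.263 CPM in the diet-only mice and at 0.654, 1.05 and 0.696 CPM with tofogliflozin. All 3 tofogliflozin libraries were above all 3 diet-only libraries, at means of 0.801 ± 0.220 and 0.347 ± 0.186 CPM (SD, n = 3 each). The difference of 0.454 CPM fell to 0.328 CPM without tofogliflozin replicate 2 and rose to 0.561 CPM without diet-only replicate 2. The exact permutation test (2-sided) gave p = 0.1, the smallest possible, and 0.5 after adjustment over the 5 single-value tests. The groups rest on 17 and 28 counts, and the nearest libraries, with 8 and 9 counts, had intervals of 0.242 to 1.10 CPM and 0.299 to 1.24 CPM. Among the 128 names that missed the filter and had 20 or more counts in all, groups did not overlap for 9.38%, a limit of 20 chosen after the data were seen. In the edgeR fit without a filter its log2 fold change was 1.12 ± 0.82 (SE, adjusted p = 0.844).

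miR-144-5p was read at 0.0437, 0.140 and 0.526 CPM in the diet-only mice and at 0.654, 0.452 and 0.0580 CPM with tofogliflozin. Both groups held low and high libraries (exact permutation test, 2-sided, p = 0.6, adjusted 0.7).

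The summed share of the 5 members averaged 0.0101% ± 0.00633 in diet-only mice and 0.0156% ± 0.00706 in treated mice (SD over 3 mice, exact permutation test, 2-sided, p = 0.4, adjusted 0.667). The difference was 0.00553 percentage points. With miR-3107-5p added to the sum the shares ran from 0.00944% to 0.0461% and the difference was 0.0112 (exact permutation p = 0.4), an alternative chosen after the data were seen. For miR-451a alone it was 0.000267. Leaving out tofogliflozin replicate 2 gave 0.00177, diet-only replicate 1 gave 0.00299, tofogliflozin replicate 3 gave 0.00877 and diet-only replicate 3 gave 0.00908.

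Across the 6 mice, both groups together, miR-451a was compared with each other member in log2 CPM (5 relations, exact permutation of the pairings, 2-sided, Benjamini-Hochberg adjustment). The 5p arm of its cluster mate had the same order of libraries as miR-451a, with Pearson's r = 0.86 (p = 0.00139, adjusted 0.00694) and Spearman's rho = 1.0 (p = 0.00278, adjusted 0.0139). With diet-only replicate 1 and tofogliflozin replicate 1 removed, the libraries farthest from the median of miR-451a, r was 0.97. The counts of miR-144-5p behind this are 1 to 9 per library, and its single counts in the 2 lowest libraries have exact intervals of 0.0253 to 5.57 counts. With 1 count in each, the order of these 2 libraries in miR-144-5p was set by library size alone.

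For the 3p arm the relation did not pass, with r = 0.50 and rho = 0.49 (adjusted permutation p = 0.387 and 0.444), and r was -0.40 without the same 2 libraries. In diet-only replicate 3, miR-451a was high and miR-144-3p low. Whether the arms differ in their relation to miR-451a was not tested.

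miR-486-5p had r = 0.83 and rho = 0.71 with miR-451a (adjusted permutation p = 0.0532 and 0.227), and r = 0.75 without those 2 libraries. miR-3107-5p had r = 0.84 and rho = 0.71 (adjusted permutation p = 0.0532 and 0.227), and r = 0.75. miR-486-3p had r = 0.17 and rho = -0.03 (adjusted permutation p = 0.807 and 1.0), but r = 0.95 over the 4 libraries left. All points share their library with each other, and 3 mice a group were too few for values within groups.

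**Figure D5:**
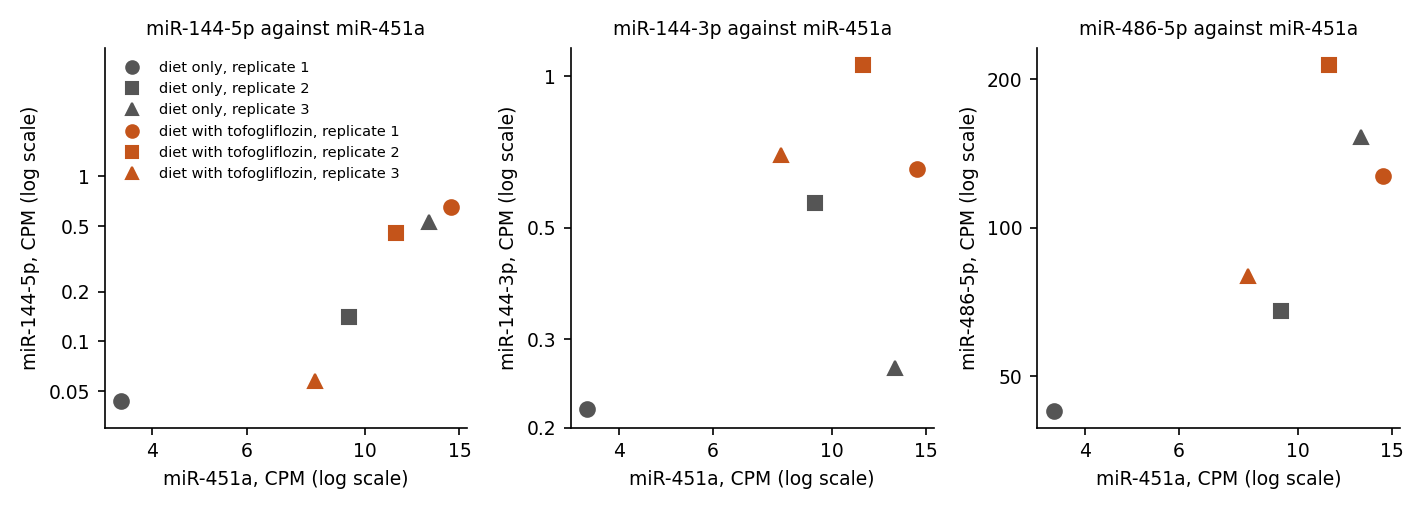
CPM of miR-144-5p, miR-144-3p and miR-486-5p (y axes, log scale) against miR-451a (x axes, log scale), 1 point per library. miR-144-5p has the same order of libraries as miR-451a, while miR-144-3p is low in diet-only replicate 3 and miR-486-5p is highest in tofogliflozin replicate 2.

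Among 246 other tested miRNAs with a mean of at least 10 CPM, those most like miR-451a over the 6 libraries were miR-455-3p (r = 0.83), miR-365-3p (0.82), miR-30b-5p (0.80), miR-181b-5p (0.79) and miR-10b-5p (0.78). These are descriptions over 6 libraries, picked as the highest of many. miR-3107-5p and miR-486-5p ranked 4 and 5 among all tested miRNAs in likeness to miR-451a, and miR-486-3p ranked 158. These ranks also count miRNAs with a mean under 10 CPM. At r = 0.841 and 0.834, miR-3107-5p and miR-486-5p lay above miR-455-3p at 0.827.

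The deepest and the shallowest library lay at the ends of several of these values. Diet-only replicate 1, the deepest library, was the lowest in miR-451a, both arms of miR-144, miR-486-5p and miR-3107-5p. Tofogliflozin replicate 2, the shallowest, was the highest in miR-486-5p, miR-3107-5p and miR-144-3p, and it also held 248 CPM of the hepatocyte miRNA miR-122-5p, against 39.0 to 78.0 CPM in the other 5. Tofogliflozin replicate 2 was not the highest in miR-451a, at 11.4 CPM, or in miR-144-5p, at 0.452 CPM. In miR-486-3p neither the deepest nor the shallowest library was at an end. The part of depth or of the makeup of tofogliflozin replicate 2 in the results was not tested.

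Other miRNAs described in erythroid cells, most of them also made by many other cells, did not pass edgeR's test with the filter on low counts either. Of 15 on the list 13 were tested, and 8 had a log2 fold change above 0 and 5 below, with 0 called and a median of 0.11. miR-363-3p at 0.46 ± 0.17 (SE) and miR-92a-3p at 0.28 ± 0.11 had an unadjusted edgeR p of 0.0304 and 0.0392. Both had an adjusted edgeR p of 0.854, and 5% of all tested miRNAs had an unadjusted p under 0.05. Groups did not overlap for these or for miR-16-5p at -0.15 ± 0.12, as for 12% of all tested miRNAs. The most abundant were miR-191-5p at 0.11 ± 0.10 (SE), miR-24-3p at -0.16 ± 0.19 and miR-222-3p at 0.83 ± 0.53. Without the filter edgeR called miR-222-3p, at 0.80 ± 0.16 (SE, adjusted p = 0.000217). With the filter its adjusted edgeR p was 0.854. It stood at 8229 CPM in tofogliflozin replicate 2, against 3509 and 1435 CPM in tofogliflozin replicates 1 and 3. The diet-only mice held 2121 to 2811 CPM of it. The summed level of the list was 15312 to 16312 CPM in the diet-only mice and 16328 to 22601 CPM with tofogliflozin, the highest in tofogliflozin replicate 2. The list includes miR-451b, which was at 0, and miR-3107-3p.

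Markers of the other blood cells, leukocytes and platelets, did not pass edgeR's test with the filter. All 8 on the list were tested, and 1 had a log2 fold change above 0 and 7 below, with 0 called and a median of -0.20, where 49.1% of all tested miRNAs were above 0. The list holds both arms of miR-142 and of miR-223. Values ran from 0.29 ± 0.37 (SE) for miR-155-5p to -0.63 ± 0.31 for miR-142-5p, and miR-342-3p at -0.19 ± 0.41 lay within its error. miR-146a-5p was at -0.60 ± 0.22 (edgeR unadjusted p = 0.0255, adjusted 0.854). Its groups did not overlap, as for 12% of all tested miRNAs. The summed level of the list was 1610 to 2726 CPM in the diet-only mice and 1412 to 1493 CPM with tofogliflozin. miR-146a-5p, which restrains NF-κB signalling and is also made by other cells, held most of it at 1579 ± 481 CPM, and miR-150-5p of lymphocytes stood at 54.3 ± 7.28 CPM (SD, n = 6 each). Without the filter edgeR called miR-146a-5p, at -0.62 (adjusted p = 0.0280).

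Striated muscle is the other known source of miR-486. Its list held 7 miRNAs, of which miR-208b-3p was at 0 and 3 were tested, with log2 fold changes from -0.18 to 0.26 and 0 called. The summed level was 95.8 to 128 CPM in the diet-only mice and 93.8 to 122 CPM with tofogliflozin, nearly all of it miR-1a-3p at 106 ± 13.9 CPM (SD, n = 6). miR-133a-3p stood at 0.864 ± 0.702 CPM. Tofogliflozin replicate 2, which had the most miR-486-5p, had the lowest summed muscle level, close to that of diet-only replicate 2, but the most miR-133a-3p, at 2.11 CPM against 0.280 to 1.27 CPM in the other 5. The part of muscle in the level of miR-486 was not tested.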

How the data were processed

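Small RNA was sequenced from renal cortex of 6 mice. Isolation used a NucleoSpin miRNA kit and library preparation a NEBNext small RNA kit, per the labels' protocols. Adapter trimming software cutadapt 1.14 and the mouse build mm10 are named in the submitters' processing notes. Which aligner, read counter and miRBase version produced the tables is not given in the sources used here. Values are whole-number read counts in 2033 rows per library, as the authors deposited them, without normalization. Reads carry no molecular identifiers, so repeated copies of one molecule count as separate reads. The Poisson, Wilson and exact intervals take each read as independent and cover counting error only. The edgeR intervals also include the spread between mice.

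A name with several rows was taken at its largest count per library. CPM is per 1000000 of the resulting total. Group differences came from edgeR 4.0.16 under R 4.3.3 (quasi-likelihood, TMM, default filterByExpr, Benjamini-Hochberg, threshold 0.05), without covariates. SE is the absolute log2 fold change over the square root of F. Arm ratios were tested with limma 3.58.1 on log2 of 5p over 3p, 1 count added to each, where the lower arm averaged 50 counts or more. Single values were tested by exact permutation (20 arrangements) with scipy 1.17.1, and log2 CPM for correlations used a prior count of 2. Hairpins were folded with RNAfold 2.7.2. DESeq2 1.42.0, limma-voom, other size factors and filters, summed rows, a replicate block and each library left out were alternatives. The code was tested on simulated data. Named miRNAs are the members, those of the same loci, the 5 most like miR-451a, and up to 3 of the most abundant per list. Some others are named for their values, a call in an alternative fit or a shared seed, and so were picked from the results. The members, lists and tests were chosen with earlier results of these data known. Tests of miR-144 by CPM were added because the filter left both arms out.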

Additional observations from a re-analysis of the deposited data

How the results depend on the processing

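The number of called miRNAs was 0 under all alternatives run except without a filter on low counts (10) and with DESeq2 (2), and no red cell member was among those called. Without the filter miR-222-3p of the erythroid list and miR-146a-5p of the leukocyte list were among the 10, as were miR-122-5p of the liver list and miR-204-5p of the kidney tubule list. It was 0 to 0 with a library left out. For arm use the number of called hairpins was 0 under all alternatives. With a library left out, log2 fold changes ran from -0.00066 to 0.79 for miR-451a, 0.22 to 1.30 for miR-486-5p, 0.23 to 1.32 for miR-3107-5p and -0.45 to 0.013 for miR-486-3p. Those of miR-451a (-0.00066, without diet-only replicate 1) and miR-486-3p (0.013, without diet-only replicate 3) turned direction, and the cause was not tested. The log2 ratio of miR-451a to miR-486-5p ran from -0.43 to 0.11 and turned to 0.02 when diet-only replicate 2 was left out and to 0.11 when tofogliflozin replicate 2 was. The relation of miR-451a to miR-486-5p and to miR-3107-5p passed when log2 of the share of all counts was used (r = 0.84 for both, adjusted permutation p = 0.0486). The unadjusted permutation p was 0.0292 and 0.0264. These 2 rows are not independent, yet both counted among the 5 relations of the adjustment, so they are not 2 separate results. An adjustment that counts them once was not run. Without the 2 libraries farthest from the median of miR-451a, r was -0.40 for miR-144-3p, 0.97 for miR-144-5p, 0.75 for miR-486-5p, 0.95 for miR-486-3p and 0.75 for miR-3107-5p.

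Same-numbered mice did not deviate together across miRNAs (r = 0.003, -0.14 and -0.17). A fit with replicate block called 0 miRNAs, 10 had an unadjusted p under 0.05 in place of 23, and the log2 fold changes were 0.48 for miR-451a, 0.77 for miR-486-5p, 0.79 for miR-3107-5p and -0.20 for miR-486-3p. The arm ratio of miR-486 was 0.90 with the block, at an adjusted limma p of 1.0. Counts of 1 to 12 limit everything said of miR-144.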
